A study of Mus musculus with 2 samples.

Results

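The FOS, JUN, EGR and ATF3 transcription factors and the early response gene Ier3 were examined in mouse embryonic fibroblasts (MEFs) lacking Bmi1. The 10 genes Fos, Fosb, Fosl1, Fosl2, Jun, Junb, Jund, Egr1, Atf3 and Ier3 were chosen by name, and every probe set annotated to 1 of them alone was taken. This gave 14 probe sets of 45101 on the array and 10 genes of 18194. Expression had been measured on 1 array of Bmi1 null MEFs and 1 array of Bmi1 wild-type MEFs. The lines came from embryos of the same litter per the methods of the study, and the labels give both as C57BL/6 and male. Both had been immortalized with a construct for TBX2, a T-box repressor, and were grown in medium with fetal bovine serum, without further treatment. Bmi1 is a subunit of Polycomb repressive complex 1, which ubiquitylates histone H2A. The question of the arrays was how gene expression differs when Bmi1 is absent. With 1 array per group there is no replicate and no test, and genotype cannot be told apart from cell line, culture or array.

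Immediate early genes are transcribed within minutes of a growth factor, serum or stress signal, without new protein synthesis, and their mRNAs are short-lived. The FOS and JUN proteins carry a basic leucine zipper (bZIP) through which they pair to form AP-1, a dimer that binds DNA. JUN proteins can pair with each other, whereas FOS proteins need a JUN partner. In fibroblasts AP-1 is known for its part in proliferation, in the response to serum and in the transcription of matrix-degrading proteases and cytokines. When the medium had last been changed before RNA was taken is not given in the sources used here.

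Signals are MAS5 intensities, which the authors had scaled to a trimmed mean of 500 on each array. Signals below 100 were set to that floor, and a fold against the floor is written as "at least". Every log2 ratio is null over wild-type. The only error available is the scatter between ratios of different probe sets for the same gene, with an SD (log2 scale) of 0.31 for brighter signals of 100 to 500, 0.30 for 500 to 2000 and 0.27 above 2000 (602, 2168 and 1821 genes with a pair of measured probe sets). It does not cover variation between cultures or arrays. Signal was above the floor on at least 1 array for 11766 genes, including all 10 examined here.

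The 2 arrays were checked against their labels. Bmi1 signal was 2146 in null and 9933 in wild-type cells at 1 probe set, 4.63-fold lower, and 831 against 931 at the other, 1.12-fold lower. Whether either of them covers the deleted exons could not be determined. The Y-linked gene Eif2s3y read 23.3 in null and 1683 in wild-type cells, and Uty and Kdm5d were also below the floor in null cells alone at their brightest probe sets (26.5 against 1187, and 15.3 against 712), although the label of both lines is male. Several fibroblast markers were bright on both arrays, among them Vim (19233 in null and 19519 in wild-type cells) and Pdgfrb (6951 and 6816). Other fibroblast markers differed between the lines. In null cells Col3a1 was 4.38-fold higher, and 22.7-fold higher at its second probe set. Col1a1 was 2.16-fold and 3.65-fold higher at its probe sets, and Lum at least 7.29-fold higher. By contrast, Pdgfra was 9.31-fold lower and Thy1 at least 3.75-fold lower (50.7 against 375). The brightest Col1a2 probe set read 17029.7 in null and 15048 in wild-type cells, 1.13-fold higher, and the gene was 2.56-fold (16952 against 6616) and at least 2.92-fold higher at its other probe sets. Of the 12 fibroblast markers, 3 exceeded 2-fold upwards and 2 downwards, with a summed signal of 119016 in null and 104972 in wild-type cells. Of the defining markers of other cell types, Ptprc (36.1 and 12.4), Pecam1 (37.4 and 15.8) and Cdh1 (19.9 and 8.10) were below the floor on both arrays. Markers above it on at least 1 array numbered 2 of 6 for macrophages, 2 of 4 for endothelium, 1 of 4 for epithelium and 4 of 4 for neural cells. Among them the macrophage receptor genes Csf1r (213 and 244) and Adgre1 (118 and 171) and the endothelial Kdr (206 and 150) differed by less than 2-fold. The neural tubulin gene Tubb3 was 2.70-fold lower in null cells (122 against 330) and the endothelial cadherin gene Cdh5 at least 2.08-fold lower (29.2 against 208). The summed signal was 515 and 593 over 6 macrophage markers, 299 and 413 over 4 endothelial markers, 495 and 682 over 4 neural markers, and 1015 and 237 over 4 epithelial markers, the last mostly from 1 Epcam probe set (834 and 149). The part of these differences in the results below was not tested.

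The AP-1 genes differed in opposite directions. Fos was the 1 gene of the 10 that exceeded 2-fold upwards in null cells, and Fosl1, with the largest difference of the group, the 1 gene that did so downwards. Jun and Ier3 were close to 2-fold lower. The other 6 genes, Fosb, Fosl2, Junb, Jund, Egr1 and Atf3, had log2 ratios within 0.5 of 0. In RNA of whole cultures, fewer cells that express a gene and less RNA per cell cannot be told apart. Among all measured genes, 5.73% exceeded 2-fold upwards and 5.16% downwards, so counts of 1 of 10 in each direction are near that background. The median log2 ratio of the 10 genes was −0.084, against 0.006 over all measured genes. When each array was scaled to its median signal instead, 2 of the 10 genes exceeded 2-fold downwards and 1 upwards, because Ier3 passed the threshold at −1.08.

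**Figure D1:**
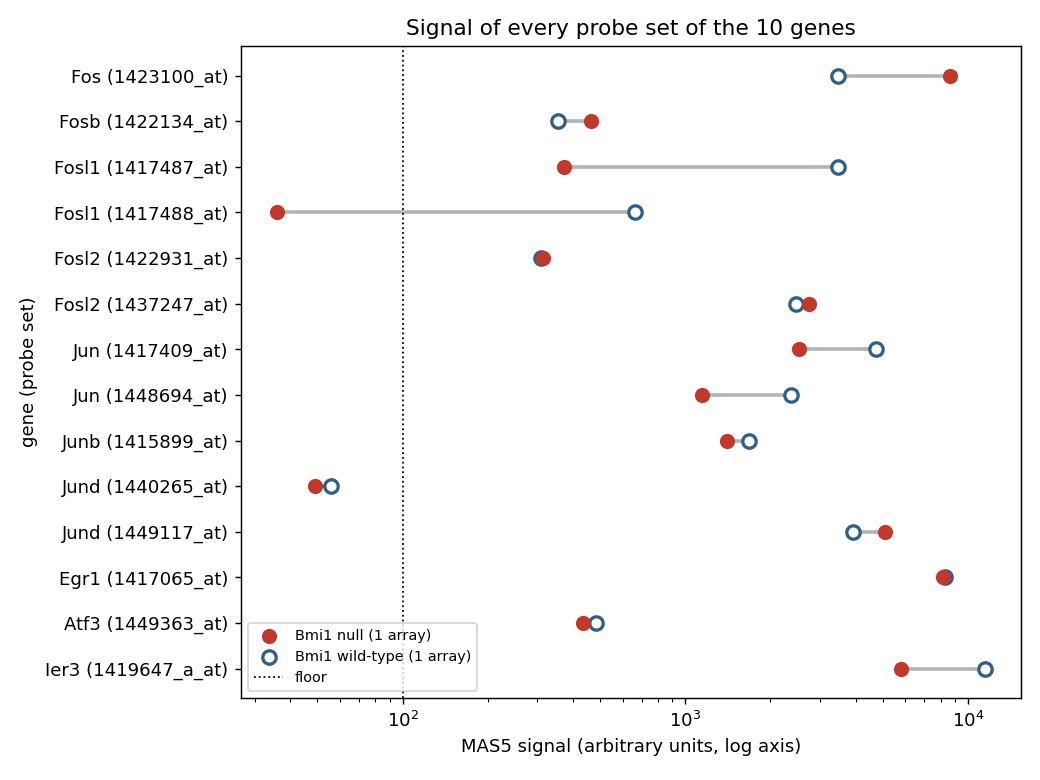
MAS5 signal (x axis, log scale) of each of the 14 probe sets (rows) on the Bmi1 null array (filled red) and the Bmi1 wild-type array (open blue), 1 array each, with the floor of 100 dotted. Levels should be compared within a row only, since probe sets differ in their response. The Fosl1 rows show the widest gaps, 373 in null against 3480.1 in wild-type cells at the brighter probe set, and Fos a gap in the other direction.

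Sequences upstream of Fos and Jun are shown because these genes encode the classical AP-1 pair and differed in opposite directions. Each window runs from 250 bases before to 50 bases after the start of transcription in RefSeq, on the strand of the gene, in the build GRCm38.p6. The Fos window is chr12:85473640-85473939 on the plus strand and the Jun window chr4:95052173-95052472 on the minus strand. Capitals mark the matches to the searched motifs.
Fos: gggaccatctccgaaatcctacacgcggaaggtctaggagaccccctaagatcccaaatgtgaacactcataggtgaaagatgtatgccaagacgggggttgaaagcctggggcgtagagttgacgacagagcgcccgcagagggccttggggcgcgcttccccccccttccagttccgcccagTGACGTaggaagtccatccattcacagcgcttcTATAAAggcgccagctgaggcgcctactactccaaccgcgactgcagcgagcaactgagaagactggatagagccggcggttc
Jun: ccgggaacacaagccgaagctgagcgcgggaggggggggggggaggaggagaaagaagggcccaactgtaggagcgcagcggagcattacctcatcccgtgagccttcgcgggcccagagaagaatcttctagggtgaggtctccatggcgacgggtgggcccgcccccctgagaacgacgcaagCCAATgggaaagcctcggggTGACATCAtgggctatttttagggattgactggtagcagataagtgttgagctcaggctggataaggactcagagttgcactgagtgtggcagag
Promoter windows were found for 8 of the 10 genes, all but Fosl1 and Egr1. The CArG box bound by serum response factor, the cAMP response element TGACGTCA and the AP-1 sites TGAGTCA or TGACTCA were searched on both strands and matched in 0 of the 8 windows, against 1.57%, 1.88% and 5.17% of 27025 RefSeq promoters of the same length. The other motifs were chosen after the windows had been read. The shortened element TGACGT, contained in the cAMP response element, began 66 bases before the start in Fos and was also found in Atf3. It was present in 7.64% of all promoters. The variant TGACATCA began 45 bases before the start in Jun, and 3.76% of all promoters held it. Fos also had a TATAAA match (14.2% of all promoters) and Jun a CCAAT match (37.9%). A match describes the letters in the window and does not show that a factor binds there. Sequence outside the windows was not searched, so the lack of a match does not show that a gene lacks the site.

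Fos encodes c-Fos, the founding member of its family. Its single probe set read 8658 in null and 3479.6 in wild-type cells. Fos was thus 2.49-fold higher in null cells (log2 ratio 1.32, probe set SD 0.27), and 6.79% of all measured genes had a ratio farther from 0 in either direction. Fosb, a close paralogue of Fos that neurons and fibroblasts induce after stimulation, read 464 in null and 355 in wild-type cells. This was 1.31-fold higher (log2 ratio 0.38), little more than the SD of 0.31 for probe sets of that signal.

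Fosl1 encodes Fra-1, a FOS family protein that lacks the transactivation domain of c-Fos and whose gene is itself induced by AP-1 and by ERK signalling. Its brighter probe set read 373 in null and 3480.1 in wild-type cells, 9.33-fold lower (log2 ratio −3.22). Its second probe set read 35.8, below the floor, in null cells and 663 in wild-type cells, at least 6.63-fold lower. Both probe sets placed Fosl1 low in null cells, by 12.1 times the probe set SD at the brighter one and by at least 9.12 times at the other. Counted from the lowest ratio, Fosl1 ranked 39 of 11766 measured genes. Fosl2, which encodes the related Fra-2, did not share this difference. It read 2728 in null and 2462 in wild-type cells at its brighter probe set (1.11-fold higher, log2 ratio 0.15) and 314 against 310.0 at the other (1.01-fold). Both values were within 1 probe set SD of 0.

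Jun encodes c-Jun, the AP-1 subunit that JNK phosphorylates. It read 2516 in null and 4722 in wild-type cells at the brighter of its probe sets, 1.88-fold lower (log2 ratio −0.91). The other read 1145 in null and 2369.6 in wild-type cells, 2.07-fold lower (log2 ratio −1.05). These probe sets differed from each other by less than the SD of 0.27 and lay on either side of the 2-fold line. Junb, which encodes a JUN protein that can restrain c-Jun activity, read 1407 in null and 1685 in wild-type cells. It was 1.20-fold lower (log2 ratio −0.26), within the SD of 0.30. Jund, the JUN family gene known for expression in resting cells, read 5099 in null and 3909.6 in wild-type cells. It was 1.30-fold higher (log2 ratio 0.38), somewhat beyond the SD of 0.27. The second Jund probe set (49.1 and 56.0) did not reach the floor and gave no ratio. Within the JUN family, therefore, Jun alone approached a 2-fold difference, and no test of the difference between paralogues was possible.

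**Figure D2:**
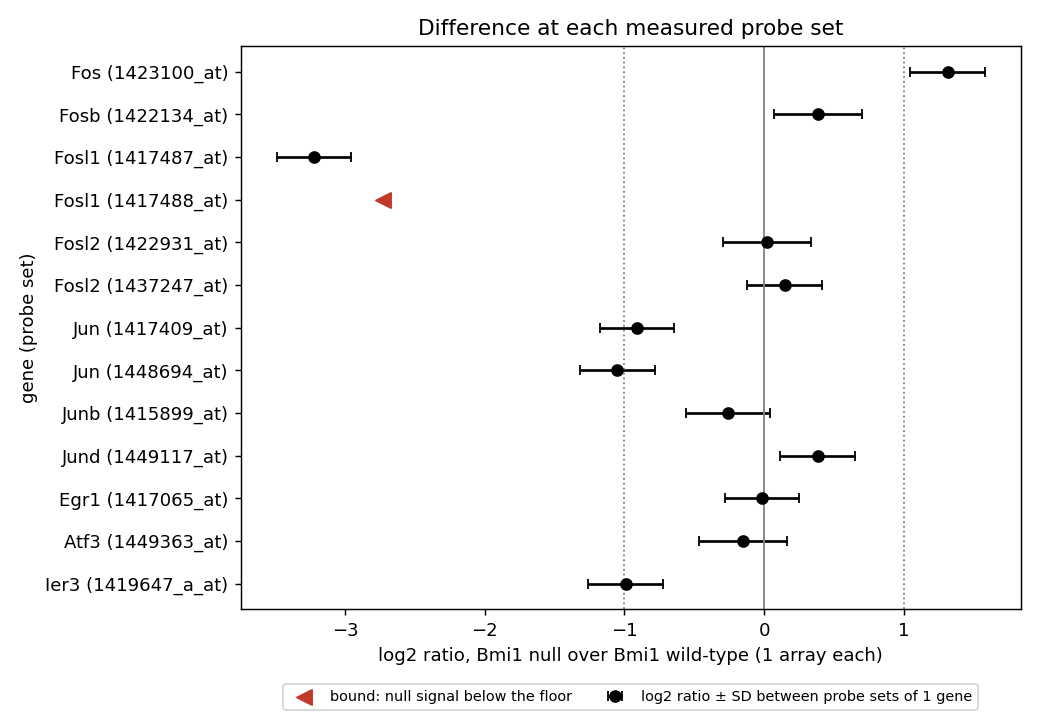
Log2 ratio, Bmi1 null over Bmi1 wild-type (x axis, 1 array each), of the 13 probe sets with a signal above the floor (rows). Bars are the SD between probe sets of 1 gene in the signal class, the red triangle is a bound because the null signal was below the floor, and dotted lines mark 2-fold. Both Fosl1 probe sets lie left of −2, both Jun probe sets near −1, and Egr1 at −0.015.

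Egr1, a zinc finger factor and one of the most widely used reporters of serum and ERK signalling, had nearly equal signals of 8175 in null and 8264 in wild-type cells. The log2 ratio of −0.015 was within the SD of 0.27. Of all measured genes, 96.9% had a ratio farther from 0. Atf3, a bZIP factor of the ATF and CREB family induced by stress, read 434 in null and 482 in wild-type cells, 1.11-fold lower (log2 ratio −0.15, SD 0.31). Ier3, an early response gene that encodes a membrane-associated regulator of survival and ERK signalling rather than a transcription factor, read 5780.0 in null and 11488 in wild-type cells. It was 1.99-fold lower (log2 ratio −0.99, SD 0.27), just short of 2-fold. Its probe set carries the suffix _a_at, which marks probes shared by transcripts of 1 gene.

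Counted by probe set, 13 of the 14 were measured. Of these 1 (Fos) exceeded 2-fold upwards and 3 (both of Fosl1 and 1 of Jun) downwards. Over all 20620 measured probe sets with 1 symbol, 5.06% exceeded 2-fold upwards and 5.10% downwards. Since probe sets of 1 gene report the same RNA, these 3 stand for 2 genes.

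Other genes of the same pathways were described from lists written by function, with earlier results of these data known. Their shares beside the background are therefore descriptions only. The lists overlap, Ccl2 and Hbegf standing among both the immediate early genes and the AP-1 targets, Dusp1 among both the immediate early genes and the feedback inhibitors, and Atf4 among both the bZIP partners and the stress genes. Of 36 measured immediate early genes outside the 10, 3 (8.33%) exceeded 2-fold upwards in null cells and 10 (27.8%) downwards, and their median log2 ratio was −0.31. Against the background of 5.73% upwards and 5.16% downwards, to which the shares of the later lists also refer, the upward share is near the background. Its 3 genes became 1 with a floor of 0.4 trimmed means or with the mean of probe sets. That gene, Ccn2, was named after its value was seen. Ccn2 read 18881 in null and 7638 in wild-type cells, 2.47-fold higher. The chemokine Ccl2 read 1313 in null and 12845 in wild-type cells, 9.78-fold lower. Nfkbiz, an atypical inhibitor of NF-kappaB, was 4.57-fold lower (1429 against 6526), with 5.90-fold and 3.41-fold at its other probe sets. The nuclear receptor Nr4a1 was 4.07-fold lower (1430.1 against 5819). The chemokine Cxcl1 was 3.89-fold lower (925 against 3597.5), and its other probe sets were 8.50-fold and 16.0-fold lower.

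The paralogues of Nr4a1 and Egr1 are added here after their values were seen. Nr4a2 read 333 in null and 1039 in wild-type cells, 3.12-fold lower, although its other measured probe sets ranged from 1.06-fold to 2.72-fold lower. Nr4a3 was below the floor in null cells (18.7 against 223), at least 2.23-fold lower. All NR4A genes were therefore lower in null cells at their brightest probe sets. The EGR family showed no such common direction. Egr2 was at least 3.79-fold lower (91.2 in null and 379 in wild-type cells) and 2.06-fold lower at a second probe set, Egr3 was 2.67-fold higher (388 against 145), with a second probe set at least 1.59-fold lower, and Egr4 exceeded the floor on neither array. Several widely used early genes differed little between null and wild-type cells, among them the phosphatase gene Dusp1 (4260.1 and 4416) and the RNA-binding Zfp36 (2125 and 1905). Ier2 (4052 and 4887) was 1.21-fold lower, by 1.01 times the probe set SD.

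The other bZIP partners of FOS and JUN included 2 of 9 measured genes that exceeded 2-fold downwards (22.2%) and 0 upwards, and their median log2 ratio was −0.51. That median was −0.15 with a pseudocount, −0.25 with the mean of probe sets and −0.27 without a floor. It was −0.60 with median scaling, and −0.69 with a floor of 0.4 trimmed means or without probe sets of shared suffix. In place of 2 genes, 1 exceeded 2-fold downwards with the mean of probe sets and 3 with median scaling. Maff, a small MAF protein without a transactivation domain, read 544 in null and 1568 in wild-type cells, 2.89-fold lower. Maf itself read 394 and 997, 2.53-fold lower, with bounds of at least 1.63-fold and at least 1.40-fold at other probe sets. Of the kinase arms upstream of the immediate early genes, 0 of 15 measured genes from RAS through ERK to SRF exceeded 2-fold in either direction (median −0.010), against 5.73% upwards and 5.16% downwards of all measured genes. In that arm Srf itself was 1.27-fold higher (1298 against 1022) at its brighter probe set and 1.02-fold lower (508 against 520) at the other. Its coactivator Mrtfa was 1.75-fold higher (1545 against 880), whereas the coactivator Mrtfb was 1.45-fold lower (1310 against 1894). Of the 15 genes, 7 had a log2 ratio above 0 and 8 below. Of 16 genes of the JNK and p38 arm, 0 exceeded 2-fold upwards and 1 downwards (median 0.055), and 2 exceeded it upwards without a floor or with a floor of 0.1 trimmed means. Counts of 0 or 1 in lists of this size are near the background. The 1 gene, named after its value was seen, was Mapk13, at least 2.10-fold lower (39.0 against 210.0). The transcript of the kinase JNK1, Mapk8, read 676 in null and 621 in wild-type cells.

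**Figure D3:**
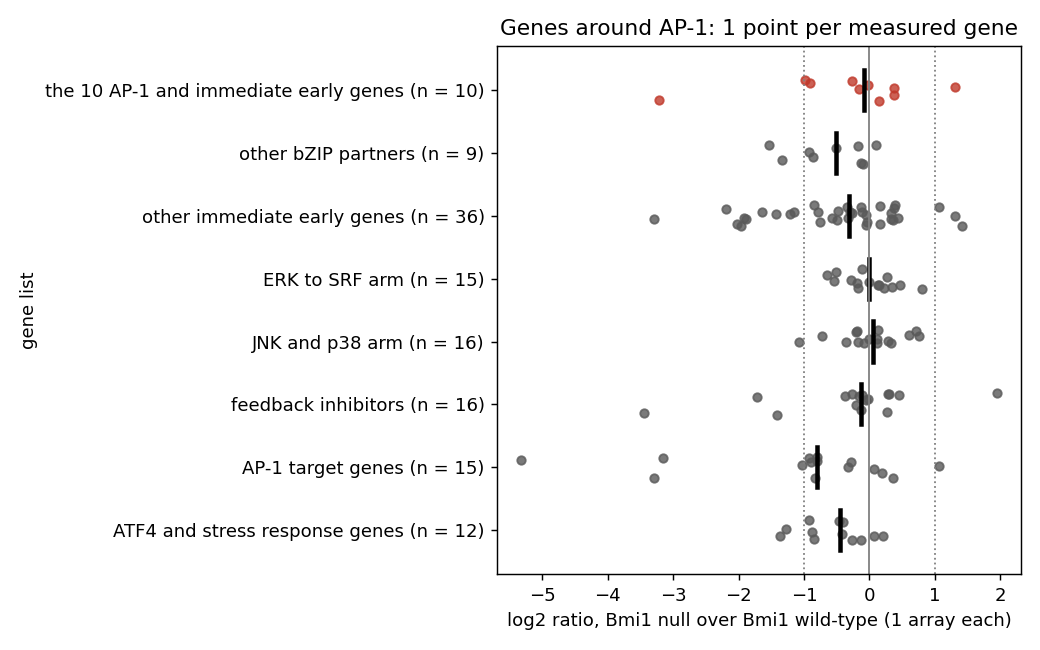
Log2 ratio, Bmi1 null over Bmi1 wild-type (x axis, 1 array each), of each measured gene (points, bounds included) of the 10 genes and of 7 lists of related genes, with list medians as black bars and 2-fold as dotted lines. The median is −0.80 for AP-1 target genes and −0.010 for the ERK to SRF arm.

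Feedback inhibitors of these pathways included genes that differed in both directions. Of 16 measured, 1 (6.25%) exceeded 2-fold upwards and 3 (18.8%) downwards, and the median log2 ratio was −0.12. The MAP kinase phosphatase gene Dusp4 read 153 in null and 1664 in wild-type cells, 10.9-fold lower. Another phosphatase gene, Dusp10, was 2.66-fold lower (391.97 against 1044), with at least 1.56-fold at a second probe set. The EGF receptor inhibitor Errfi1 was 3.30-fold lower at both of its probe sets. Spry1, a Sprouty inhibitor of receptor tyrosine kinase signalling, was 3.86-fold higher (1863 against 483). The ERK phosphatase gene Dusp6 read 1858 in null and 2017 in wild-type cells.

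Genes known as AP-1 targets in fibroblasts and other cells had the lowest median of the 7 lists, −0.80. Of 15 measured, 1 (6.67%) exceeded 2-fold upwards and 4 (26.7%) downwards, and 11 had a log2 ratio below 0 and 4 above. The stromelysin gene Mmp3 read 226 in null and 9053 in wild-type cells, 40.1-fold lower. Both probe sets of the gelatinase gene Mmp9 fell short of the floor in null cells (95.6 against 895, and 14.4 against 1110.2), at least 8.95-fold and at least 11.1-fold lower. Ccl2 is given above. The fourth, Hmox1, a heme oxygenase gene named here after its value was seen, read 2293 in null and 4685 in wild-type cells, 2.04-fold lower. Likewise named after their values were seen, Tgfb1 (779 and 1477), Timp1 (3583 and 6357), Plaur (1396 and 2437) and Vegfa (1087 and 1888) were between 1.74-fold and 1.90-fold lower in null cells, and Il6 at least 1.86-fold lower (55.6 and 186). In the opposite direction, the collagenase gene Mmp13 was 2.10-fold higher (1211 against 576). The cyclin gene Ccnd1 read 7863 in null and 6106 in wild-type cells, and the urokinase gene Plau 575 and 549.6. The matrix metalloproteinase gene Mmp10 read 1275 in null and 1113 in wild-type cells, 1.15-fold higher. The part of AP-1 in these differences was not tested.

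Stress response genes, among them those of the ATF4 pathway to which Atf3 belongs, had a median log2 ratio of −0.44. Of 12 measured, 0 exceeded 2-fold upwards and 2 (16.7%) downwards. The 2 with a log2 ratio above 0, named after their values were seen, were Xbp1 (7906 in null and 7557 in wild-type cells) and Hspa5 (9262 and 7993). Ppp1r15a, which encodes the phosphatase subunit GADD34, read 1029 in null and 2498 in wild-type cells, 2.43-fold lower. The cystine transporter gene Slc7a11 was 2.57-fold lower (204 against 523) and 2.23-fold at a second probe set. Atf4 read 9322 in null and 10189 in wild-type cells, and Ddit3, which encodes CHOP, 2218 and 2934.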

How the data were processed

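Total RNA of both lines was converted to biotinylated cRNA with an oligo(dT) primer and hybridized to an Affymetrix whole-genome mouse array per line. The deposited values are intensities that the authors computed per probe set with MAS5, 1 linear signal per array. Their mean after removal of 2% at each end was 500 on both arrays, which hides any change common to most transcripts. No detection calls were used, and the number of arrays limits the precision.

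Symbols came from the platform annotation, which gave 34958 of 45101 probe sets 1 symbol. For a gene with several probe sets, the one of highest average log2 signal over both arrays was taken. Signals below 0.2 times the trimmed mean were set to that floor of 100, log2 ratios of null over wild-type were taken, and genes that exceeded the floor on neither array had no ratio. Each ratio was set beside the SD between probe sets of 1 gene. This SD was taken from the 2 brightest probe sets per gene that exceeded the floor on both arrays (SD of their difference over the square root of 2). It was set beside bounds too, although no probe set with a signal below the floor entered it. No test was run, since each group had 1 array. All probe sets of the 10 genes were described. Of each functional list, up to 4 genes were named whose ratio exceeded 2-fold and whose brighter signal reached 500, in order of the difference. Further genes (among them paralogues, kinases and transcripts with little difference) were named after their values were seen. The genes and lists were chosen with earlier results of these data known. List genes without an array match were not analysed here. Calculations used Python 3.11.15, pandas 2.3.3 and numpy 2.4.6, and the steps were tested on simulated data. The alternatives were no floor, floors at 0.1 and 0.4 times the trimmed mean, a pseudocount of 50, median scaling, quantile normalization, the mean of probe sets, and leaving out shared probe sets (_s_at, _x_at, _a_at).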

Additional observations from a re-analysis of the deposited data

How the results depend on the processing

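The log2 ratio of each of the 10 genes was computed under the 8 alternatives and moved by less than the probe set SD in all 79 values (Ier3 has no value without probe sets of shared suffix). Many of these values could not have moved. The probe sets used for the 10 genes exceeded every floor tried on both arrays, so changing or dropping the floor left their ratios as they were. Leaving out shared probe sets did so too for the genes that kept a value, and the mean of probe sets for the 6 genes with 1 probe set. Median scaling shifted each ratio by the same −0.087, less than any probe set SD. Fos ranged from 1.23 to 1.32, Fosl1 from −3.31 to −2.98, Jun from −0.996 to −0.895 and Ier3 from −1.08 to −0.98. With median scaling 2 of the 10 genes exceeded 2-fold downwards in null cells, against 1 otherwise, and 0 AP-1 targets upwards, against 1. Of the JNK and p38 genes 2 exceeded 2-fold upwards without a floor and 2 with a floor of 0.1 trimmed means, and 0 downwards with one of 0.4 trimmed means. Of the other immediate early genes 1 exceeded 2-fold upwards with that higher floor and 1 with the mean of probe sets, against 3. Of the bZIP partners 1 exceeded 2-fold downwards with the mean of probe sets, and their median was −0.15 with a pseudocount. Without a floor 2347 of all genes exceeded 2-fold upwards and 1580 downwards, against 674 and 607. Without a floor every gene has a ratio and the bounds of measured genes become full ratios, and the share of each in these counts was not separated. The cause of the other differences was not tested. No paired analysis was possible because each group held 1 array, and for the same reason no replicate could be left out. Signals near 100 limit what can be said of Nr4a3, Egr2, Egr3 and Mapk13.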
